A study of Mus musculus with 6 samples.

Results

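Retinoic acid is made, bound, sensed and degraded by a small set of proteins, and the mRNA levels of 9 of their genes were examined in the cortex of wild-type embryos and of embryos lacking both Sam68 and SLM2. The members were *Aldh1a1*, *Aldh1a2* and *Aldh1a3* (synthesis), *Cyp26b1* (degradation), *Crabp1* and *Crabp2* (intracellular binding) and *Rara*, *Rarb* and *Rxra* (receptors), and they were taken by gene symbol from a table of 59484 features. Of the 9 genes, 8 had a feature of their own and all 8 passed a mean of at least 10 normalized counts over the libraries. *Aldh1a1* had none: its reads were counted together with those of the non-coding gene *E030003E18Rik* in 1 shared feature, so that its level cannot be separated and is given only as that of the pair.

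The samples were cortices of mouse embryos at E18.5. One group comprised 3 wild-type samples (Wt1 to Wt3, here wild-type 1 to 3) and the other 3 samples carrying the Sam68:Slm2 double knockout (Dko1 to Dko3, here dKO 1 to 3). Both genes were lost throughout the animal and not in a single cell type. The labels do not tie each library to an animal or litter, so *P*-values measure the spread between these samples. Libraries of polyadenylated RNA held between 31837922 and 40896541 reads on the listed features. Values are the deposited normalized counts, that is, reads divided by a size factor of the library, and 1 read was worth between 0.877 and 1.16 of them. Features with 2 reads outnumbered those with 1 or 3 in each library (for wild-type 1, 2166 features against 957 and 453), so that reads may not be independent counts.

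Retinoic acid is a small lipid made from vitamin A (retinol), which is oxidised first to retinal and then, irreversibly, to the acid by the ALDH1A enzymes. Inside the cell it is carried by CRABP proteins to heterodimers of retinoic acid receptors (RAR) and retinoid X receptors (RXR), which sit on DNA and switch target genes on when the ligand binds, while CYP26 enzymes break it down. In the embryonic forebrain the meninges are a known source, and the striatum is a known site of receptor expression.

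The deleted genes served to check the labels. Sam68 is the product of *Khdrbs1*, which had 8231, 8436 and 7974 normalized counts in wild-type 1 to 3 and 114, 197 and 146 in dKO 1 to 3. SLM2 is the product of *Khdrbs3*, which had 13543, 15215 and 12764 in wild-type 1 to 3 and 7060, 6350 and 6547 in dKO 1 to 3. The groups did not overlap for either gene, and no library went against its label. The log2 fold changes (dKO minus wild-type, on log2(normalized count + 1), which understates the change of low genes) were -5.78 ± 0.16 (SE; limma, adjusted *P* = 1.08e-07) for *Khdrbs1* and -1.05 ± 0.09 (limma, adjusted *P* = 0.000855) for *Khdrbs3*. Without the trend and robust settings of limma the adjusted *P*-value of *Khdrbs3* was 0.0891, above the threshold of 0.05, so that it was not called there. *Khdrbs3* still gave many reads, and its exons cannot be told apart in whole-gene values.

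None of the 8 members with a feature of their own differed between the genotypes at an adjusted *P*-value under 0.05 in limma, where 19 of 18970 features (0.1%) did. edgeR on the recovered reads called 0 of the 8 as well (16 of all features, 0.0843%), and so did DESeq2 (202 of all features, 1.06%). At an unadjusted *P*-value under 0.05, limma had 1 of the 8 members lower in dKO cortex (*Aldh1a2*), against 6.58% of all features, and 0 higher, against 4.92%. *Aldh1a2* passed the filter on the mean only through the wild-type group and mainly 1 library, so that the filter favoured its direction and the count supports nothing. The median log2 fold change of the 8 members was -0.06, and that of all features tested was 0.00. All dKO libraries lay below all wild-type libraries for 1 of the 8 (*Aldh1a3*), where 8.48% of all features did so, and above them for 0, where 7.89% did. A single member of 8 is near these background shares and is no result about the members.

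**Figure D1:**
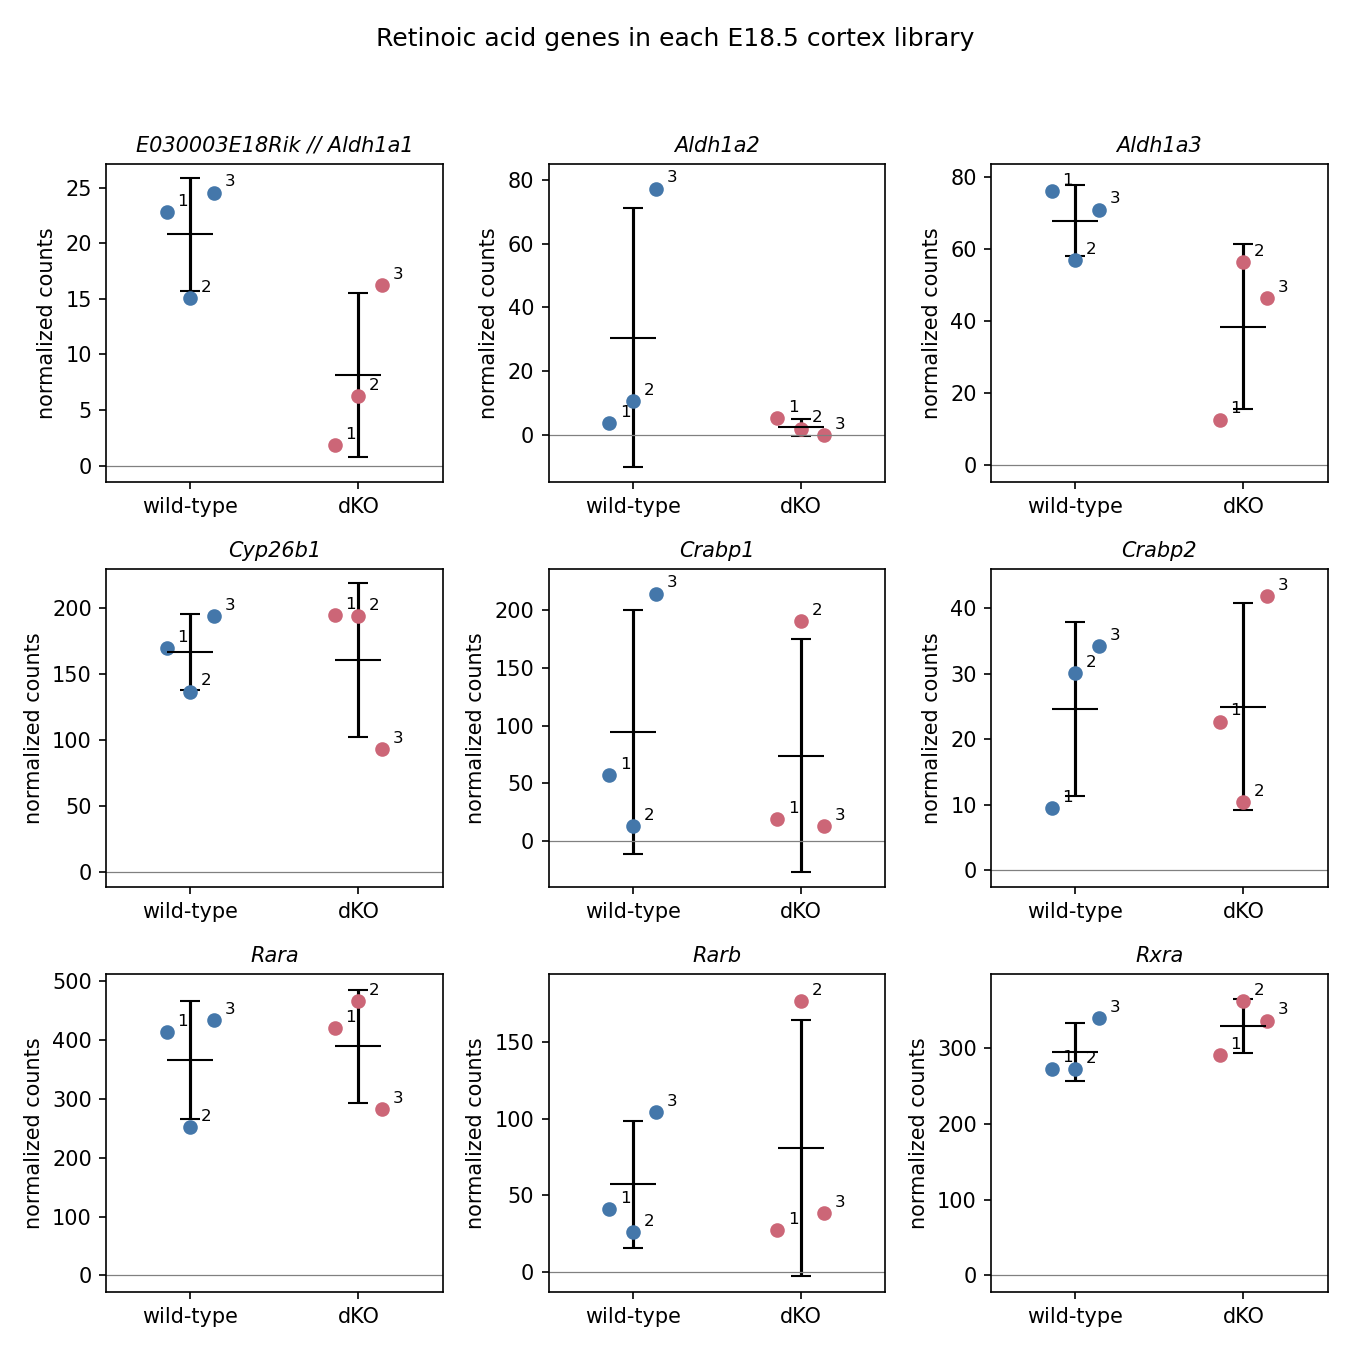
Normalized counts (vertical axis) of the 8 members and of the feature shared by *E030003E18Rik* and *Aldh1a1* in the 3 wild-type and 3 dKO libraries (points, numbered by replicate); horizontal bars are group means and error bars 1 SD. The groups are apart only for *Aldh1a3*, by 56.9 against 56.5 normalized counts, and wild-type 3 alone is high in *Aldh1a2*.

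*Aldh1a3* (chr7:66390895-66427479, minus strand in GENCODE M21, mm10) encodes a retinaldehyde dehydrogenase and is a known target of Sam68 in neural progenitors. It had 76.1, 56.9 and 71.0 normalized counts in wild-type 1 to 3 and 12.7, 56.5 and 46.4 in dKO 1 to 3. dKO 1 was the low library, and the other dKO libraries lay below the wild-type range. The means were 68.0 ± 9.93 for the wild-type group against 38.5 ± 22.9 for the dKO group (SD over 3 libraries each), and the log2 fold change was -1.04 ± 0.48 (SE; limma, adjusted *P* = 0.447). It was -0.39 without dKO 1 and -1.43 without dKO 2, so that most of the difference rested on dKO 1. Transcript forms of *Aldh1a3* cannot be told apart in whole-gene values, so the processing of its RNA was not tested.

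*Aldh1a2* (chr9:71215789-71296243, plus strand) encodes a dehydrogenase known from the meninges. It had 3.80, 10.7 and 77.1 normalized counts in wild-type 1 to 3 and 5.45, 2.09 and 0 in dKO 1 to 3. Wild-type 3 stood far above the other 5 libraries, which overlapped between the genotypes. The 0 of dKO 3 allows up to 3 reads, or 3.48 normalized counts. The log2 fold change was -2.60 ± 1.08 (SE; limma, adjusted *P* = 0.402), and it was -1.47 without wild-type 3 where the feature was kept in the fit. With the filter applied again to the other 5 libraries, *Aldh1a2* was no longer tested. Keeping it was decided after this was seen.

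The feature shared by *E030003E18Rik* and *Aldh1a1* (chr19:20492583-20643463) had 22.8, 15.0 and 24.5 normalized counts in wild-type 1 to 3 and 1.82, 6.27 and 16.2 in dKO 1 to 3. dKO 3 exceeded wild-type 2, so the groups overlapped. The fitted log2 fold change was -1.60 ± 0.67 (SE; limma, adjusted *P* = 0.406), and it was -0.93 without dKO 1. As for *Aldh1a2*, only the wild-type mean reached 10 (20.8 against 8.11), so that the filter favoured a lower value in dKO cortex. Which of its genes the reads came from was not tested.

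Relative to exon length, with the shared feature taken as *Aldh1a1*, the share of *Aldh1a3* in the summed level of the 3 dehydrogenases was 72.3%, 61.3% and 28.3% in wild-type 1 to 3 and 49.8%, 84.8% and 75.3% in dKO 1 to 3. The groups overlapped. The mean share was 54.0% ± 22.9 for wild-type and 70.0% ± 18.1 for dKO libraries (SD, n = 3; exact two-sided permutation test, *P* = 0.4, where 0.1 is the smallest value that 3 against 3 allow). The difference of 16.0 percentage points fell to 3.17 without wild-type 3, the library high in *Aldh1a2*, and to 8.62 without dKO 2, and was 25.2 without wild-type 1 and 26.1 without dKO 1.

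*Cyp26b1* (chr6:84571414-84593908, minus strand) encodes an enzyme that degrades retinoic acid. It had 169, 136 and 194 normalized counts in wild-type 1 to 3 and 194, 193 and 92.8 in dKO 1 to 3. dKO 3 was the lowest library and the groups overlapped. The log2 fold change was -0.12 ± 0.28 (SE; limma, adjusted *P* = 0.892), and without dKO 3 it was 0.23.

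*Crabp1* (chr9:54764748-54773110, plus strand) encodes a cytosolic carrier of retinoic acid. It had 57.1, 12.9 and 213.9 normalized counts in wild-type 1 to 3 and 19.1, 190.3 and 12.8 in dKO 1 to 3. Wild-type 3 and dKO 2 were high, and the other 4 libraries lay at or below 57.1. *Crabp2* (chr3:87948693-87953372, plus strand), the carrier that delivers the ligand to the receptors, had 9.51, 30.1 and 34.2 in wild-type 1 to 3 and 22.7, 10.5 and 41.8 in dKO 1 to 3. Its libraries followed a different order from those of *Crabp1*, and the groups overlapped for both. The log2 fold changes were -0.57 ± 1.38 (SE; limma, adjusted *P* = 0.897) for *Crabp1* and 0.00 ± 0.60 (limma, adjusted *P* = 0.998) for *Crabp2*. *Crabp1* turned to 0.40 without wild-type 3 and 0.15 without dKO 3 and was at -1.75 without dKO 2, -1.57 without wild-type 2 and -0.12 without dKO 1. *Crabp2* ran from -0.55 without wild-type 1 to 0.50 without dKO 2. On the scale of level per exon length, *Crabp2* made up 9.18%, 58.6% and 8.84% of both carriers in wild-type 1 to 3 and 41.9%, 3.23% and 66.5% in dKO 1 to 3. On average it was 25.5% ± 28.6 for wild-type and 37.2% ± 31.9 for dKO libraries (SD, n = 3; exact two-sided permutation test, *P* = 0.7), and without dKO 3 the difference turned to -2.96 percentage points.

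*Rara* (chr11:98937675-98974942, plus strand) and *Rxra* (chr2:27677198-27763319, plus strand) encode receptors that are found in many tissues. *Rara* had 414, 251 and 433 normalized counts in wild-type 1 to 3 and 420, 465 and 282 in dKO 1 to 3. Wild-type 2 and dKO 3 were the low libraries, and the groups overlapped. The same 2 libraries were the lowest in *Cyp26b1* and *Crabp1* too, so in 3 of the 8 members, where 7.69% of all features were lowest in both, a count made after the values were seen. They carried *Xist*, the non-coding RNA of the inactive X chromosome, at 2793 and 1661 normalized counts, against at most 12.3 in the other 4, and had at most 2.15 of *Eif2s3y*, of the Y chromosome, so that each genotype had 1 library with a female and 2 with a male pattern. The part of sex in the levels of these members was not tested. The feature of *Rara* overlaps that of *Top2a*, which had between 1039 and 1675 normalized counts, and the strand setting of the counting is not given in the sources used here, so reads of the pair may not be fully separated. *Rxra* had 273, 273 and 339 normalized counts in wild-type 1 to 3 and 291, 362 and 336 in dKO 1 to 3, and the groups overlapped. The log2 fold changes were 0.10 ± 0.24 (SE; limma, adjusted *P* = 0.897) for *Rara* and 0.16 ± 0.15 (limma, adjusted *P* = 0.686) for *Rxra*. That of *Rxra* was 0.27 without wild-type 3, 0.25 without dKO 1 and 0.09 without dKO 2, and that of *Rara* -0.15 to 0.31 with a library left out.

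*Rarb* (chr14:16430839-17082331, minus strand) encodes a receptor whose own gene is induced by retinoic acid. It had 40.9, 25.8 and 104.3 normalized counts in wild-type 1 to 3 and 27.2, 176.7 and 38.3 in dKO 1 to 3. Wild-type 3 and dKO 2 were again high, and the groups overlapped. The log2 fold change was 0.25 ± 0.73 (SE; limma, adjusted *P* = 0.920), -0.56 without dKO 2 and 0.80 without wild-type 3, and edgeR and DESeq2 gave 0.50. In GENCODE M21 the end of *Top2b*, on the plus strand, overlaps *Rarb*, though their features in the table do not overlap, so that with the strand setting not given some reads of *Top2b* may be counted for *Rarb*.

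Per kilobase of exon, the mean level in wild-type cortex was highest for *Crabp1* (118 ± 132 normalized counts per kb, SD, n = 3), followed by *Rara* (83.9 ± 22.9), *Rxra* (54.0 ± 7.02) and *Cyp26b1* (31.1 ± 5.38). *Crabp2* (18.6 ± 10.002), *Aldh1a3* (14.7 ± 2.15), *Aldh1a2* (13.5 ± 17.9), *Rarb* (10.8 ± 7.92) and the feature holding *Aldh1a1* (4.21 ± 1.03) were lower. Only *Rxra* and *Cyp26b1* had ranges that did not overlap among neighbours in this order. The rank of *Crabp1* rested on wild-type 3, since its lowest wild-type library had 16.1. The same library set the rank of *Aldh1a2*, which had 1.68, 4.74 and 34.1 normalized counts per kb in wild-type 1 to 3.

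The libraries that were high in *Rarb* and *Crabp1* were also the highest in 9 of 12 markers of the striatum, the region below the cortex, against 6.67% of all features, while *Ppp1r1b*, *Drd1* and *Rgs9* were not highest there. All 12 genes had a mean of at least 10, and none was at 0. Their median log2 fold change was -0.05, with 5 positive and 7 negative. It ran from -0.47 without dKO 2 to 0.33 without wild-type 3, so that its sign was not settled. Without dKO 2, 11 were negative and 2 were lower at an unadjusted *P*-value under 0.05 in limma. The summed normalized counts of the 12 genes were 5175, 4550 and 6229 in wild-type 1 to 3 and 4271, 6763 and 5442 in dKO 1 to 3, with *Ppp1r1b* the most abundant. *Ppp1r1b* went the other way, with 2166 in wild-type 3 and 2353 in dKO 2, its 2 lowest libraries, and 3263 in dKO 3. *Drd1* and *Rgs9* were named after their values were seen. *Drd1* was also lowest in these libraries (500 and 507), and *Rgs9* was lowest in wild-type 3 (316). *Isl1* and *Six3*, chosen after their values were seen, had 95.6 and 148 normalized counts in wild-type 3 and 115 and 107 in dKO 2. In the other 4 libraries *Isl1* had between 1.07 and 25.5 and *Six3* between 5.37 and 74.2. The receptor gene *Rxrg* was also highest in these 2 libraries, with 57.1, 7.52 and 213.9 normalized counts in wild-type 1 to 3 and 16.3, 421.4 and 63.8 in dKO 1 to 3. Wild-type 3 and dKO 2 also had the highest sums of choroid plexus markers (267 and 209 normalized counts, against at most 166 elsewhere). Of these, *Clic6* was highest there (56.1 and 20.9), but *Sostdc1*, the most abundant, was highest in wild-type 1 (107, against 103 and 101). The sums of markers of interneurons and the ganglionic eminence were also highest in wild-type 3 and dKO 2 (24720 and 22026, against at most 20213). *Npy*, the most abundant of them, was highest in wild-type 1 (6155), with 5252 in wild-type 3 and 5732 in dKO 2. The sums of radial glia markers were highest in these libraries as well (51547 and 51366, against at most 45753). *Fabp7*, the most abundant of them, had 18200 and 18590 there, against at most 14574 elsewhere. Other genes of the list went otherwise: *Nes* was lowest in wild-type 3 (8378), and *Pax6* was highest in dKO 3 (1102). *Nes* and *Pax6* were named after their values were seen. The remaining marker lists did not have their 2 highest sums in wild-type 3 and dKO 2. The part of these markers, striatal or other, in the levels of *Rarb* and *Crabp1* was not tested, and fewer cells of a type cannot be told apart from less RNA per cell in bulk tissue. Without wild-type 3 and dKO 2, left out after these levels were seen, limma called 0 of the 8 members and 8 features in all, and the log2 fold changes were -0.01 for *Rarb*, -0.77 for *Crabp1*, -1.39 for *Aldh1a3*, -1.56 for *Aldh1a2* and 0.82 for *Crabp2*, which was at 0.00 with all libraries.

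Wild-type 3, the library high in *Aldh1a2*, was also the highest in 12 of 15 markers of meningeal fibroblasts, where 19.3% of all features were highest in it. *Ptgds* and *Zic1* were highest in wild-type 2 and *Foxc2* in wild-type 1. The 15 include *Gjb2*, highest in wild-type 3, and *Foxc2*. Their means of 4.96 and 3.51 lay below the 10 required of the features behind the 19.3%. Of 16 listed genes, 15 had a feature and 13 were tested, of which 12 had a negative log2 fold change, with a median of -0.69, and 0 passed the adjusted threshold in limma. At an unadjusted *P*-value under 0.05, 3 were lower (*Slc6a13*, *Ptgds* and *Dcn*), against 6.58% of all features. Without wild-type 3 the median was -0.38, 10 were negative and 1 was lower at this level. Without wild-type 2 the count was 5, and without dKO 1 it was 2. The list summed to 3534, 3875 and 4972 normalized counts in wild-type 1 to 3 and 3660, 3232 and 3670 in dKO 1 to 3, and its most abundant gene was *Zic1*, which other cells of the brain also express, at 962 to 1720. *Slc6a13*, chosen after its values were seen, had 78.9 in wild-type 3 and between 1.82 and 20.9 in the other libraries, and it reached a mean of 10 in the wild-type group only (37.6 against 5.64). The part of these cells in the level of *Aldh1a2* was not tested.

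**Figure D2:**
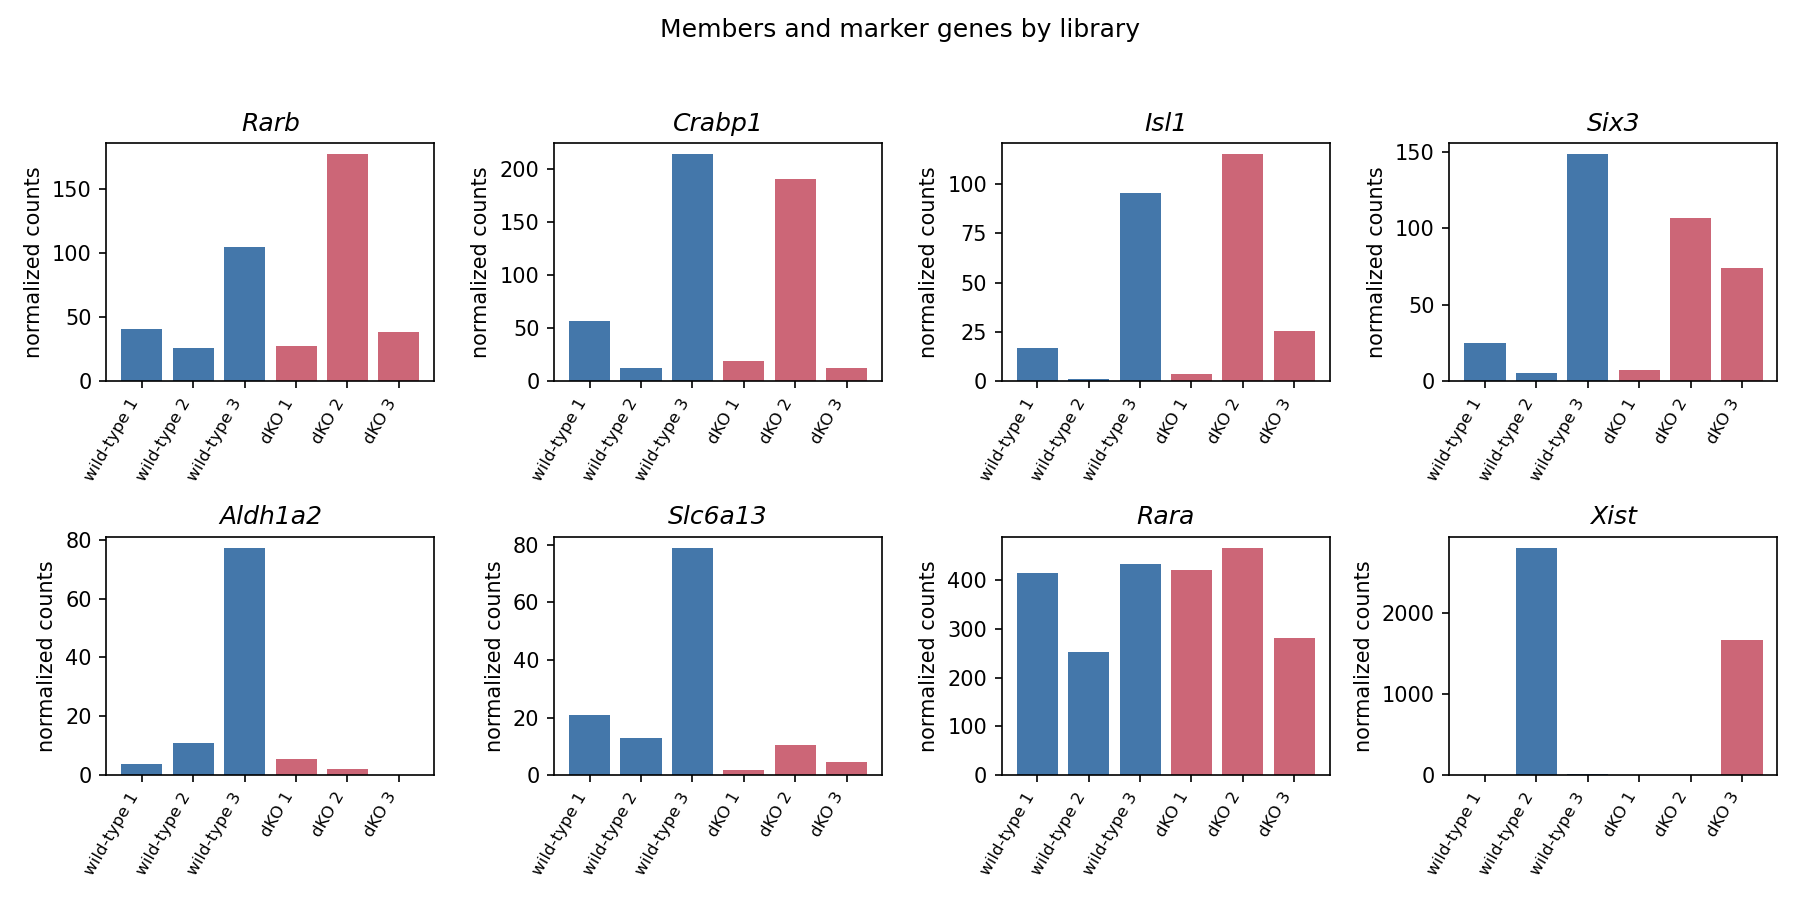
Normalized counts (vertical axes, from 0) of 4 members and 4 marker genes in each library (bars, wild-type in blue and dKO in red). *Rarb*, *Crabp1*, *Isl1* and *Six3* are highest in wild-type 3 and dKO 2, *Aldh1a2* and *Slc6a13* in wild-type 3, and *Rara* is lowest in wild-type 2 and dKO 3, the libraries with *Xist*.

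Over the other cell type lists, with all features at a median log2 fold change of 0.00, the median was -0.60 for choroid plexus, whose marker *Ttr* had at most 14.0 normalized counts and whose most abundant gene was *Sostdc1* (0.07 without wild-type 3, so that the direction rested on that library, -0.10 without dKO 1, -0.32 without dKO 3 and -1.01 without dKO 2, and with *Clic6*, 1 of its 5 tested genes and its most negative, at a mean of 10 in the wild-type group only, 22.8 against 9.73), -0.18 for endothelial cells (*Cldn5*), -0.18 for mural cells (*Rgs5*), 0.20 for erythroid cells (*Hba-a1*) and -0.01 for microglia (*Csf1r*). It was -0.04 for interneurons and the ganglionic eminence (*Npy*), 0.14 for the thalamus (*Lhx2*), 0.25 for cortical projection neurons (*Neurod6*) and -0.01 for radial glia (*Fabp7*). Of the thalamus list, *Lhx2* had between 5610 and 7167 normalized counts in these cortex libraries and *Gbx2* at most 4.64. Whether this list reports on the thalamus here was not tested. The list of sex-linked genes had a median of -0.17. With a library left out, the median ran from -0.24 to -0.11 for endothelial cells (without wild-type 3), -0.24 to -0.09 for mural cells (without dKO 3), 0.02 (without dKO 3) to 0.33 for erythroid cells, which were at 0.07 without wild-type 2, 0.07 (without dKO 1) to 0.15 for the thalamus and 0.16 (without dKO 3) to 0.39 (without dKO 2) for projection neurons. It ran from -0.18 to 0.15 for microglia, -0.22 to 0.16 for interneurons, -0.08 to 0.05 for radial glia and -3.04 to 2.96 for sex-linked genes, so that none of these 4 had a settled sign. For the labelled tissue, *Neurod6* had between 45180 and 71754 normalized counts in each library. *Foxd1*, *Maf*, *Hbb-bs* and *Hbb-bt* had no feature of their own. limma called 0 of the 95 marker genes tested (12 at an unadjusted *P*-value under 0.05), edgeR called 0 and DESeq2 called 2, *Flt1* and *Emx1*. Over all features, 11.5% had an unadjusted *P*-value under 0.05 in limma and 1.06% were called by DESeq2. The 12 lay in 5 lists. Higher in dKO cortex, where 4.92% of all features were, came 4 of 9 genes of cortical projection neurons (*Emx1*, *Neurod2*, *Bcl11b* and *Fezf2*) and 2 of 8 of radial glia (*Pax6* and *Vim*). Lower, where 6.58% of all features were, came 3 of 13 of meningeal fibroblasts, 2 of 8 of endothelial cells (*Flt1* and *Kdr*), all 8 of which had a negative log2 fold change, and 1 of 6 of mural cells (*Rgs5*). These lists and genes were singled out after their values were seen. With a library left out, the 4 became 1 without wild-type 1 or dKO 1 and 6 without dKO 2, the 2 of radial glia became 0 without wild-type 1 or dKO 3 and 1 without wild-type 2, dKO 1 or dKO 2, while 2 were lower without wild-type 2 or dKO 2. The 2 of endothelial cells became 1 without wild-type 3 or dKO 3 and 3 without wild-type 2 or dKO 1, with 7 or 8 genes negative in each of these fits, and the 1 of mural cells became 3 without wild-type 2 and 0 without dKO 3. Genes of a list may move together, and no list was tested as a whole.

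Of 56 other genes of the retinoid pathway with a feature, 35 were tested and limma called 0 in either direction, with 2 at an unadjusted *P*-value under 0.05 (11.5% of all features), while edgeR and DESeq2 also called 0. Among genes of retinol uptake, storage and transport, 5 of 10 entered the fit, and their median was -0.06 on the log2 scale. *Fabp5*, a fatty acid binding protein that also carries retinoic acid, had a log2 fold change of 0.17 ± 0.10 (limma, adjusted *P* = 0.524). *Rbp4*, the retinol carrier of the blood, had at most 27.9 normalized counts in any library and a log2 fold change of -1.69 ± 0.96 (limma, adjusted *P* = 0.517), which was -0.51 without dKO 3. It reached a mean of 10 in the wild-type group only (17.7 against 7.21).

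Of 16 listed genes of retinol and retinal conversion, mostly dehydrogenases and reductases but also the carotenoid oxygenases *Bco1* and *Bco2*, 15 had a feature (not *Rdh16*) and 10 were tested, 5 with a positive and 5 with a negative log2 fold change. *Dhrs4* had 251, 432 and 345 normalized counts in wild-type 1 to 3 and 466, 458 and 488 in dKO 1 to 3. All dKO libraries were above all wild-type libraries. *Adh5* had 5962, 6401 and 6382 in wild-type 1 to 3 and 7037, 7208 and 7640 in dKO 1 to 3. These groups were apart as well, where 7.89% of all features are so in this direction. The log2 fold changes were 0.49 ± 0.18 (SE; limma, adjusted *P* = 0.376) for *Dhrs4* and 0.22 ± 0.07 (limma, adjusted *P* = 0.357) for *Adh5*, and *Rdh10*, which carries out the first oxidation of retinol in the embryo, had -0.23 ± 0.23 (limma, adjusted *P* = 0.721). *Dhrs4* was at 0.29 without wild-type 1, and *Rdh10* at -0.02 without wild-type 3.

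The other hydroxylases were barely detected, with *Cyp26a1* at no more than 7.61 normalized counts and *Cyp26c1* listed at 0 in all libraries. Of the other receptors, *Rxrb* had a log2 fold change of 0.07 ± 0.08 (limma, adjusted *P* = 0.738), *Rarg* -0.04 ± 0.14 (limma, adjusted *P* = 0.938) and *Rxrg* 0.72 ± 1.75 (limma, adjusted *P* = 0.899). *Rxrg* turned to -0.52 without wild-type 2 and -0.50 without dKO 2 and was 1.81 without wild-type 3. *Rarg* turned to 0.03 without wild-type 3 or dKO 1. Among 10 coregulators of the receptors, which recruit or release histone-modifying enzymes, 9 had a positive log2 fold change. Their median was 0.11, where that of all features was 0.00. In limma, 0 of the 10 had an unadjusted *P*-value under 0.05. These genes may move together, and the list was not tested as a whole. The coactivator *Ncoa3* had 0.24 ± 0.12 (limma, adjusted *P* = 0.463) and the deacetylase *Hdac3* 0.11 ± 0.07 (limma, adjusted *P* = 0.586). Of 16 other genes known to respond to retinoic acid, 7 were tested, with a median of -0.17, and *Hoxa4*, *Hoxa5*, *Hoxb1*, *Hoxb5* and *Stra8* were among those listed at 0 in all libraries. *Nr2f2*, a nuclear receptor of the ventral forebrain, had a log2 fold change of -0.54 ± 0.33 (limma, adjusted *P* = 0.559) and *Tgm2* -0.18 ± 0.25 (limma, adjusted *P* = 0.803). Without wild-type 3 they were -0.23 and 0.02.

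The features whose pattern over the 6 libraries was most like that of each member, by Pearson correlation of log2(normalized count + 1) over 12733 features with a symbol and a mean of at least 50, are given as a description. For *Rarb* they were *Mfsd3* (r = 0.997), *Ntn1* (r = 0.995) and *Nkx2-1* (r = 0.986), and for *Crabp1* they included *Cd9* (r = 0.991) and *Atp6v1g2* (r = 0.990). For *Rara* they were *Cep112* (r = 0.993), *Xpnpep3* (r = 0.980) and *Kdm5d* of the Y chromosome (r = 0.977). For *Aldh1a3* they were *Rac3* (r = 0.987), *G0s2* (r = 0.985) and *Irak2* (r = 0.982), each lowest in dKO 1. For *Aldh1a2* they were *P4ha1*, *Tjp3* and *5033417F24Rik* (r = 0.987, 0.986 and 0.983), for *Cyp26b1* *Trps1*, *Chst11* and *A230072C01Rik* (r = 0.984, 0.980 and 0.973), for *Crabp2* *Actr10*, *Kcnk2* and *Fgf18* (r = 0.989, 0.988 and 0.986) and for *Rxra* *Tmem50a*, *Pecr* and *Aph1a* (r = 0.990, 0.982 and 0.977). The values were picked as the highest among 12733 features over 6 libraries and carry no *P*-value.

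Receptor heterodimers are known to bind direct repeats of a hexamer, and promoters were searched for them because *Rarb* moved with *Crabp1* and *Rxrg* over the libraries. The RefSeq promoter table (GRCm38.p6, 300 bases around each start) held 12 promoters of 7 of the 9 members, and *Aldh1a3* and *Crabp2* were not among them. Each hexamer was AGGTCA or one of its variants GGGTCA and AGTTCA and GGTTCA, searched as a pair in the same orientation on both strands with 1, 2 or 5 bases between. Of 32851 promoters, 0.222% held a pair with 1 base between, 0.268% with 2 and 0.0974% with 5. Among the members, a pair was found in 1 gene, *Rarb*, with 5 bases between, and among the other pathway genes in *Cyp26a1* (5 bases) and *Bco1* (1 base). No pair was found for *Crabp1* or *Rxrg*, and whether the RefSeq table held a promoter of *Rxrg* is not given here. Why these genes moved with *Rarb* was not tested. The promoter of *Rarb* (chr14:16575427-16575726, minus strand) is printed 5′ to 3′ with the repeat in capitals, at chr14:16575513-16575529, together with that of *Cyp26a1* (chr19:37697558-37697857, plus strand), whose repeat lies on the opposite strand at chr19:37697776-37697792.
*Rarb*: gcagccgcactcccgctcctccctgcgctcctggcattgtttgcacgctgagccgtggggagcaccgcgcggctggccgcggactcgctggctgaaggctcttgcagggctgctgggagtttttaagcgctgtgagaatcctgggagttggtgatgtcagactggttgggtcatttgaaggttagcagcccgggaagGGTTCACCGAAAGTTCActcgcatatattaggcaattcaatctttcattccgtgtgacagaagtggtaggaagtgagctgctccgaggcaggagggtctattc
*Cyp26a1*: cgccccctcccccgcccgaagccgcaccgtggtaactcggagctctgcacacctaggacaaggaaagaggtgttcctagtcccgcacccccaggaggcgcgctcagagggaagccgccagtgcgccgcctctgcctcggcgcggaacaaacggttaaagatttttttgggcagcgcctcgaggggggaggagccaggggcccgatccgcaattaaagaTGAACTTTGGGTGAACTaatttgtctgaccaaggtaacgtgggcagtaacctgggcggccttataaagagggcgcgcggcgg
*Rarb* was measured at 25.8 to 176.7 normalized counts and *Cyp26a1* at 0 to 7.61. A match of letters does not show that a receptor was bound there.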

How the data were processed

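Groups follow the labelled genotype. The authors deposited a signal per feature of the FAST database, namely reads divided by a DESeq2 size factor of each library. The submitters' processing notes name STAR 2.7.5a, SAMtools, Picard, FastQC and the build mm10. The counting program and strand setting are not given in the sources used here. In each library, 100% of the low positive values were whole multiples of the value of 1 read (tolerance 0.1), and reads were recovered from them. Every feature whose mean reached 10 entered a limma 3.58.1 fit in R 4.3.3 (lmFit, then eBayes with trend and robust) of log2(normalized count + 1) on genotype. *P*-values were adjusted over all of these features (Benjamini-Hochberg, threshold 0.05). The fit was also run on simulated data, and no result given here rests on that run. edgeR 4.0.16, DESeq2 1.42.0, other pseudocounts, filters and scalings, a replicate block and each library left out were alternatives. For shares, permutation tests were exact and two-sided (Python 3.11.15, scipy 1.17.1). Exon lengths came from GENCODE M21. Named genes are the members, the targeted genes, of each pathway list those past the threshold and the 3 with the smallest unadjusted *P*-value, of each marker list the most abundant gene, and for each member the 3 most correlated features. The members and lists were chosen with earlier results of these data known. A few genes that this rule takes are not reported here.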

Additional observations from a re-analysis of the deposited data

How the results depend on the processing

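No tested member or pathway gene was called under an alternative. *Aldh1a2* and *Crabp2* were not tested at a mean of at least 50, nor was *Aldh1a2* without wild-type 3 with the filter applied again, and a threshold of 0.1 was not tried for pathway genes. The lowest adjusted *P*-value of a member was 0.071 (*Aldh1a2*, DESeq2), and the range for that gene ended at 0.810. The number of all features called was 19 and became 7 with neither trend nor robust in eBayes, 202 with DESeq2, 30 at an adjusted *P*-value under 0.1, and 8 without wild-type 3 and dKO 2, an alternative chosen after seeing the data. With the replicate number as a block it was 9. Same-numbered libraries did not deviate together (correlations 0.098, -0.228 and -0.079), while wild-type 3 and dKO 2 had 0.205. Sex and other differences between libraries enter these values, so they cannot settle whether the numbers pair the samples. With each library left out, the number of features called ran from 7 to 46. The fits with a library left out were run with the 6-library filter kept, a choice made after the data were seen, and with the filter applied again to 5 libraries, and the ranges cover both where both gave a value. *Aldh1a2* without wild-type 3 and *Rbp4* without wild-type 2 have a value only with the filter kept. Marker genes called ran from 0 to 1 with a library left out (*Emx1* without wild-type 2) and were 2 with DESeq2. With a library left out, the log2 fold change ran from -0.30 to 0.23 for *Cyp26b1*, -1.75 to 0.40 for *Crabp1*, -0.55 to 0.50 for *Crabp2*, -0.15 to 0.31 for *Rara*, -0.56 to 0.80 for *Rarb*, -0.52 to 1.81 for *Rxrg*, -0.10 to 0.03 for *Rarg* and -0.47 to 0.02 for *Tgm2*, crossing 0 in each, from -2.39 to -0.51 for *Rbp4*, -0.37 to -0.02 for *Rdh10*, -0.78 to -0.23 for *Nr2f2*, 0.29 to 0.68 for *Dhrs4*, 0.09 to 0.27 for *Rxra*, 0.11 to 0.27 for *Fabp5*, 0.16 to 0.35 for *Ncoa3* and 0.04 to 0.12 for *Rxrb*, and from -1.43 to -0.39 for *Aldh1a3*, -3.48 to -1.47 for *Aldh1a2* and -2.24 to -0.93 for the feature with *Aldh1a1*. Outside the ranges with a library left out, *Aldh1a2* was -3.80 with a pseudocount of 0.1, -1.25 with 10 and -3.56 with DESeq2, the feature with *Aldh1a1* -0.83 with a pseudocount of 10, *Rbp4* -2.79 with a pseudocount of 0.1, *Khdrbs3* -1.13, *Adh5* 0.16, *Hdac3* 0.05, *Rxrb* 0.02 and *Fabp5* 0.09 after quantile normalization. Inside them but moved by over 1.5 times, *Rarb* was 0.50 with edgeR and DESeq2 and 0.41 after quantile normalization, *Cyp26b1* -0.05, -0.06 and -0.03 in the same order, *Crabp1* -0.35 and -0.36 with edgeR and DESeq2, *Rbp4* -0.70 with a pseudocount of 10, and *Rdh10* -0.12 and *Tgm2* -0.08 after quantile normalization. *Crabp2*, at 0.00 in the main fit, was 0.19 after quantile normalization. *Rarg* was 0.02 after quantile normalization, and without wild-type 3 and dKO 2 *Rarg* was 0.03, *Tgm2* 0.01, *Rarb* -0.01, *Khdrbs1* -6.00, *Aldh1a2* -1.56, *Crabp2* 0.82, *Ncoa3* 0.13, *Fabp5* 0.09, *Rdh10* -0.13 and *Nr2f2* -0.34. The difference in the *Crabp2* share ran from -2.96 to 28.7 percentage points and that in the *Aldh1a3* share from 3.17 to 26.1, with a library left out; with the shared feature dropped after the data were seen, the latter was 17.4. Leaving out libraries was applied to the marker lists after the data were seen, and the median for choroid plexus then ran from -1.01 to 0.07 and that for meningeal fibroblasts from -0.74 to -0.38. The cause of these changes was not tested.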
